A study of Mus musculus with 10 samples.

Results

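Interferon stimulated effector genes are the genes through which a cell carries out its response to interferon, and 39 of them were followed here in human tumour xenografts. They were chosen by name from the deposited count table, which holds 58735 human genes, and all 39 were found (DDX58 and WARS under those former symbols). The tumours were LNCaP cells, an established human prostate cancer line that responds to androgen, grown under the skin of NSG mice (NOD.Cg-Prkdcscid Il2rgtm1Wjl/SzJ), which lack T, B and NK cells of their own. The 5 IL-15 tumours are from animals treated with control sip-T plus recombinant human IL-15 (1 µg under the skin), and the 5 control tumours are from animals treated with control sip-T and vehicle, in both groups as 4 weekly intraperitoneal injections of 100 µl of cells. Sip-T (sipuleucel-T) is a cell therapy made from human blood cells that were exposed in culture to prostatic acid phosphatase fused to GM-CSF, and IL-15 is a cytokine on which T and NK cells depend. Tumours were collected on day 7 after the last injection. The study's design also mentions IL-15 treatment of the cells, while the sample labels do not, so treated cells and injected IL-15 cannot be told apart. All tumours share 1 cell line and the same sip-T background, no tumour without sip-T was analysed here, and the labels give neither the age of the mice nor the number of cell donors.

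Interferons are secreted proteins that signal through cell surface receptors and Janus kinases to STAT transcription factors. Type I interferons act mainly through a complex that holds STAT2 and IRF9 and binds the interferon-stimulated response element, and interferon gamma acts mainly through gamma-activated sites. The first route switches on antiviral genes such as the IFIT, OAS and MX families, and the second favours IRF1, the guanylate binding proteins, IDO1 and the chemokines CXCL9, CXCL10 and CXCL11, with a broad overlap. LNCaP cells have been described as poorly responsive to interferon because of a lack of the kinase JAK1. This is background, and neither JAK1 protein nor the response to interferon was tested here. JAK1 transcripts were counted in every library, and their levels are given below.

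The libraries held 13560224 to 19324056 counts, so that a floor of 3 counts equals 0.155 to 0.221 CPM relative to these totals, for counting error only. All other CPM values are relative to library sizes adjusted with TMM factors. The 10 fixed prostate luminal genes were present in every library and summed to 9305 to 14323 CPM in IL-15 tumours and 8231 to 12136 CPM in control tumours. The 15 T cell markers summed to 6.17 to 47.6 CPM in IL-15 tumours and 4.54 to 22.5 CPM in control tumours, and the 13 NK cell and cytotoxicity markers to 3.99 to 39.2 CPM and 1.16 to 16.2 CPM in the same order of groups. Each of these 28 markers had counts. Only 8 of the T cell markers and 4 of the NK cell and cytotoxicity markers had counts in every library. GNLY (547 counts over IL-15 tumours, 150 over control tumours), GZMB (231, 42) and PRF1 (187, 38) led the second list in IL-15 tumours. KLRB1 (9, 14), NCR1 (4, 8), NCAM1 (8, 10), GZMK (8, 10) and KLRF1 (0, 2) had fewer counts over IL-15 tumours, and the rest of that list had more. Of 7 B cell markers 6 had counts (MS4A1 had 0), and they summed to 5.95 to 15.9 CPM in IL-15 tumours and 5.58 to 12.9 CPM in control tumours. Of 11 monocyte, macrophage and dendritic cell markers 9 had counts (CD1C and CLEC9A had 0), and they summed to 2.34 to 4.12 CPM in IL-15 tumours and 1.54 to 4.25 CPM in control tumours. In such bulk RNA, fewer cells of a type and less RNA per cell cannot be told apart, and no source used here says whether mouse reads were removed. Errors on levels below are SD over 5 libraries, and errors on log2 fold changes are standard errors from edgeR.

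Most members were present but scarce. Of the 39, 32 had at least 1 count in every library and 7 were seen in only some, each of them missing from a single library. The missing library was always a control tumour. XAF1, GBP5, CXCL9 and CXCL10 had 0 counts in control tumour 2, IDO1 and CXCL11 in control tumour 4, and GBP4 in control tumour 5. A count of 0 still allows up to 3 counts, and GBP5, CXCL9, IDO1 and CXCL11 each had only 1 count in IL-15 tumour 5. No share over all genes is given, so the missing libraries are not read as a difference between groups. In FPKM, which allows levels of different genes to be compared per length, 13 members averaged at least 1 over the 10 libraries and 26 less. The 29 members abundant enough for the test reached 1 FPKM in 44.8% of cases, against 79.8% of all 16913 tested genes.

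ISG15, a ubiquitin-like protein that is attached to other proteins and also secreted, was the most abundant member, at 43.9 ± 6.60 FPKM in IL-15 tumours and 52.3 ± 9.23 FPKM in control tumours. WARS, the cytosolic tryptophanyl-tRNA synthetase, followed at 12.05 ± 2.12 FPKM in IL-15 tumours and 10.6 ± 0.706 FPKM in control tumours. IFI6, an interferon inducible protein of mitochondria and endoplasmic reticulum, stood at 13.98 ± 10.95 FPKM in IL-15 tumours and 7.25 ± 2.09 FPKM in control tumours. IRF7, DTX3L, USP18, PARP9, OAS3, BST2, UBE2L6, DDX58, IFI44 and SOCS1 made up the rest of those above 1 FPKM, in descending order of the mean over all libraries from 10.1 to 1.23 FPKM. WARS, IFI6 and IRF7 are neighbours in this order that do not differ beyond their spread. At the other end, IDO1, XAF1 and MX2 averaged 0.0334, 0.0404 and 0.0481 FPKM.

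**Figure D1:**
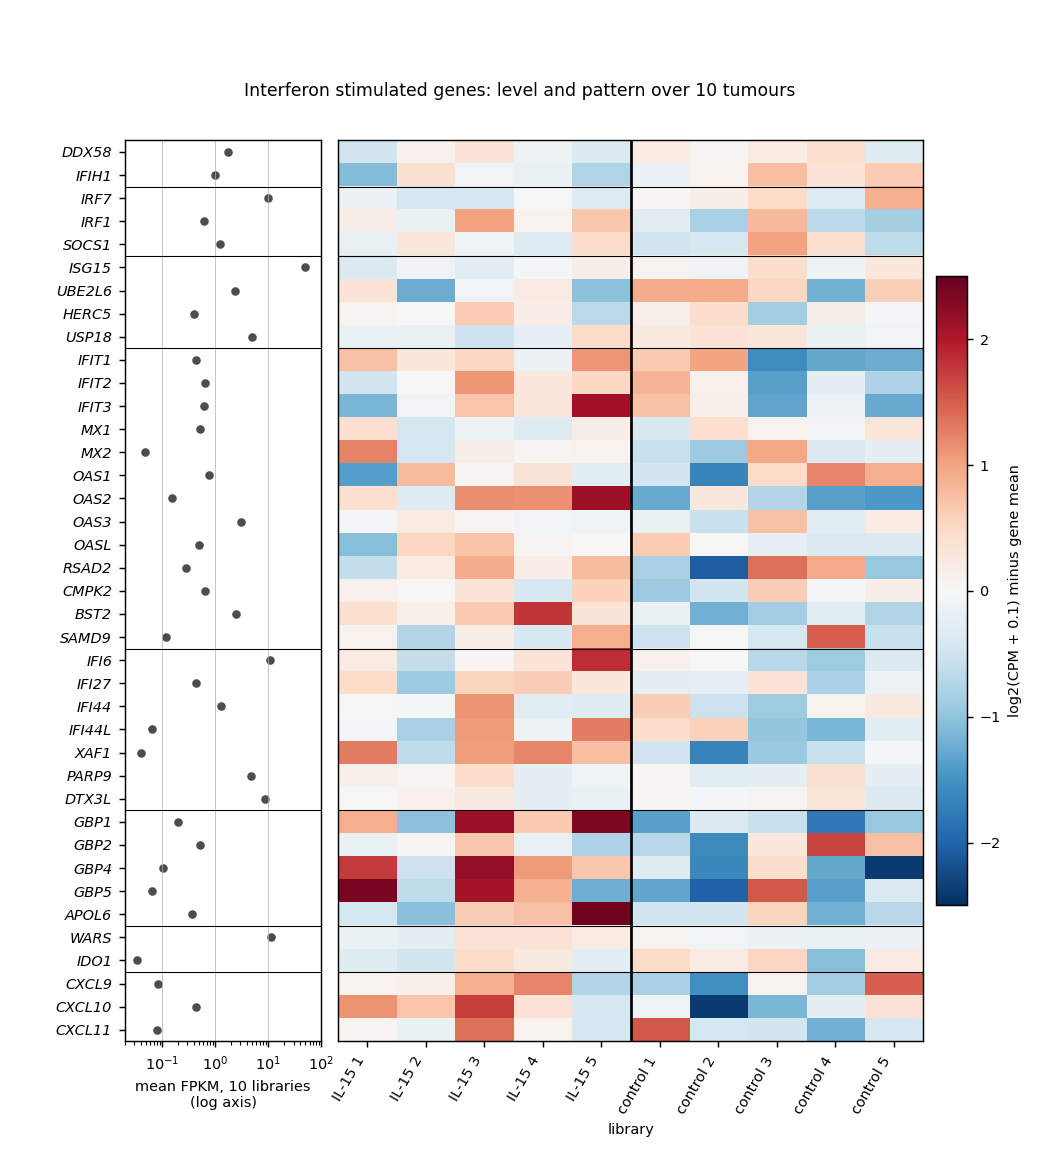
Left, mean FPKM of each member over 10 libraries on a log axis. Right, log2(CPM + 0.1) of each member in each library minus that member's mean, red above and blue below, with colours ending at 2.5 on either side, IL-15 tumours left of the line and control tumours right of it, and horizontal lines between roles. ISG15 has the highest level. Dark red cells include those of APOL6, IFI6, OAS2 and IFIT3 in IL-15 tumour 5, of GBP1 in IL-15 tumours 3 and 5, and of GBP5 in IL-15 tumours 1 and 3.

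IL-15 tumours and control tumours were compared to ask which interferon stimulated transcripts differed when IL-15 was added to sip-T. No member passed the test, and the tested members did not move one way. BST2 and OAS2 had the smallest p-values, with higher levels in IL-15 tumours, and IRF7 was the member with the smallest p among those with lower levels. edgeR's quasi-likelihood test called 0 of the 29 tested members at an adjusted p of 0.05, as it called 0% of the 16913 tested genes (smallest adjusted p = 0.758), and at an unadjusted p under 0.05 it took 6.46% of them. At that unadjusted level it took 4 members higher (BST2, OAS2, IFI6 and APOL6) against 3.03% of all tested genes, and 1 member lower (IRF7) against 3.43%. limma voom called 0 members, with 4 of 29 at an unadjusted p under 0.05 against 6.47% of all tested genes. DESeq2 also called 0 members, against 0.0699% of the genes it gave an adjusted p, and the smallest adjusted p among members was 0.0559, for GBP1. At an unadjusted p under 0.05 it took 10 of 39 members, against 4.12% of its 40857 genes. No low-count filter came before DESeq2, and it gave an adjusted p to 37 members but to only 21474 of its genes. The 4.12% thus covers many scarcer genes, so 10 of 39 is not read as an excess. Of the 29 members 16 had fold changes above 0, against 49% of all tested genes, and the median log2 fold change was 0.12 beside -0.01 over all tested genes. Without IL-15 tumour 3 the members' median was -0.01. These figures leave out the 10 members that the filter removed, which were scarce and, except for IDO1, averaged higher CPM in IL-15 tumours. Among them GBP1, GBP4, XAF1 and CXCL10 had a DESeq2 unadjusted p under 0.05. DESeq2 gave all 39 members a median log2 fold change of 0.20, beside -0.03 over all its genes.

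**Figure D2:**
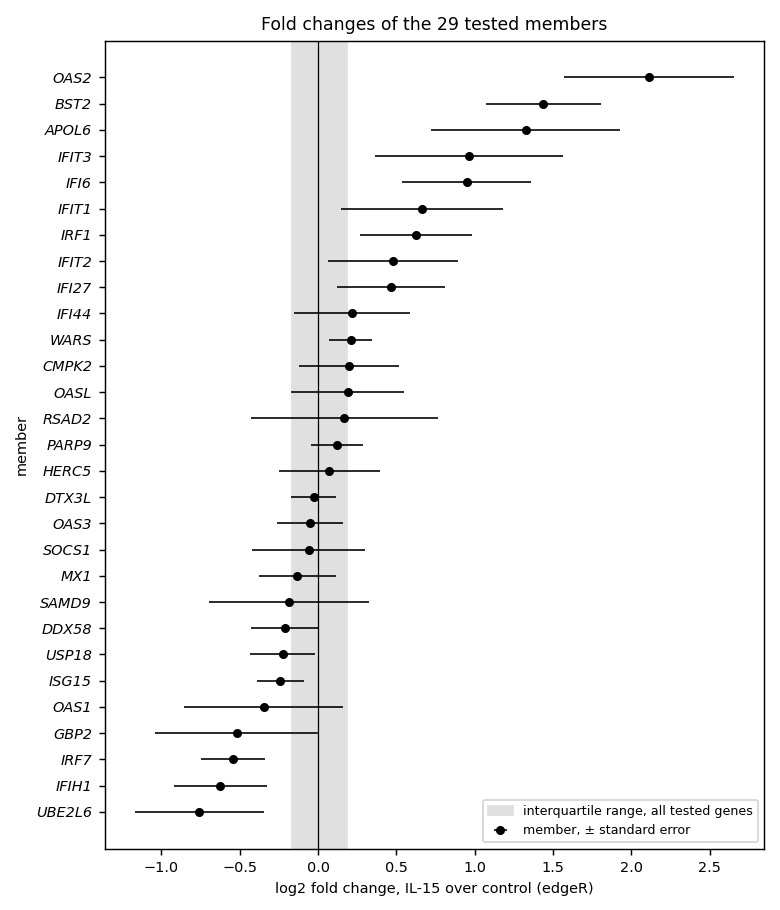
Points give the edgeR log2 fold change of IL-15 over control tumours for the 29 tested members, bars the standard error, and the grey band the interquartile range of all 16913 tested genes. OAS2 at 2.11 and BST2 at 1.44 stand at the top and UBE2L6 at -0.76 at the bottom, and no member passed the adjusted threshold.

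The sensors and the transcription factors that start and amplify the response had fold changes on both sides of 0. DDX58 encodes RIG-I and IFIH1 encodes MDA5, which detect viral RNA in the cytosol. DDX58 averaged 7.67 ± 1.86 CPM in IL-15 tumours and 8.88 ± 1.52 CPM in control tumours (log2 fold change -0.21 ± 0.22). IFIH1 averaged 4.40 ± 1.74 CPM in IL-15 tumours and 6.81 ± 1.74 CPM in control tumours (log2 fold change -0.62 ± 0.30, edgeR adjusted p = 0.772), with 3 of 5 IL-15 tumours below every control tumour. IRF7, the transcription factor that amplifies type I interferon production (ENSG00000185507, chromosome 11, 612553 to 615999 on hg38), measured 25.4, 21.3, 21.2, 28.3 and 22.5 CPM in IL-15 tumours 1 to 5, against 28.7, 30.9, 38.9, 22.4 and 52.0 CPM in control tumours 1 to 5. The IL-15 tumours lay close together, and control tumour 4 fell inside their range while the other 4 control tumours lay above it. The log2 fold change was -0.54 ± 0.20 (edgeR adjusted p = 0.758), and -0.34 without control tumour 5.

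IRF1, a transcription factor induced chiefly by interferon gamma, measured 5.38, 4.25, 9.67, 5.09 and 7.65 CPM in IL-15 tumours, against 3.97, 2.68, 8.42, 3.02 and 2.64 CPM in control tumours. Every IL-15 tumour lay above 4 of the 5 control tumours, and control tumour 3 lay above all but IL-15 tumour 3. The log2 fold change of IRF1 was 0.63 ± 0.36 (edgeR adjusted p = 0.776), and 1.05 without control tumour 3. SOCS1, which blocks Janus kinases and so limits the response, averaged 2.38 ± 0.583 CPM in IL-15 tumours and 2.48 ± 1.37 CPM in control tumours (log2 fold change -0.06 ± 0.36). The annotated spans of both genes overlap others on the opposite strand, SOCS1 (373 counts over all libraries) with RMI2 (1849 counts) and IRF1 (800 counts) with C5orf56 (781 counts). Whether the counted parts of these genes overlap was not examined. The strand setting is not known, and whether reads were shared was not tested.

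Among the genes of ISG15 conjugation, ISG15 itself (ENSG00000187608, chromosome 1, 1001138 to 1014540) measured 38.4, 46.6, 41.0, 48.2 and 54.7 CPM in IL-15 tumours, against 52.1, 46.1, 67.3, 45.4 and 59.5 CPM in control tumours. The groups overlapped, and its whole range over 10 libraries was 1.75-fold. The log2 fold change was -0.24 ± 0.15 (edgeR adjusted p = 0.789). UBE2L6, the conjugating enzyme that hands ISG15 on, averaged 4.20 ± 1.93 CPM in IL-15 tumours and 7.10 ± 3.01 CPM in control tumours (log2 fold change -0.76 ± 0.41, edgeR adjusted p = 0.774). HERC5, the main ligase for ISG15, averaged 2.19 ± 0.714 and 2.09 ± 0.631 CPM in IL-15 and control tumours. USP18, which removes ISG15 and dampens receptor signalling, averaged 10.5 ± 2.83 CPM in IL-15 tumours and 12.3 ± 1.89 CPM in control tumours (log2 fold change -0.23 ± 0.21).

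Among the 29 tested members, the 2 with the largest fold changes, OAS2 and BST2, are antiviral proteins. BST2 encodes tetherin, which holds budding virus at the cell surface (ENSG00000130303, chromosome 19, 17402939 to 17405648). It measured 3.45, 2.82, 4.12, 9.10 and 3.23 CPM in IL-15 tumours, against 2.31, 1.06, 1.37, 2.09 and 1.501 CPM in control tumours. BST2 was the 1 tested member whose groups did not overlap, where 0.349% of all tested genes were higher in every IL-15 tumour, and 0 members were lower in all of them, against 0.313% of all tested genes. IL-15 tumour 4 held by far the highest value, and without it the log2 fold change of 1.44 ± 0.37 was 1.02 (edgeR adjusted p = 0.758 with all libraries). DESeq2 gave BST2 an adjusted p of 0.0995. BST2 is also abundant in plasmacytoid dendritic cells, and the summed level of 6 genes listed as their markers was 10.2 to 15.3 CPM in IL-15 tumours and 6.11 to 10.01 CPM in control tumours. Of these genes LILRA4 had 0 counts and CLEC4C had 1 count in each group. GZMB, which the list of NK cell and cytotoxicity markers also holds, had 231 counts over IL-15 tumours and 42 over control tumours. In the same order IL3RA had 250 and 163, TCF4 403 and 358, and IRF8 8 and 2. The sum thus includes a gene of cytotoxic lymphocytes, and the part of such cells in the result was not tested. No share of other gene sums that separate the groups is given, so this sum is not read as a difference in plasmacytoid dendritic cells.

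OAS2, an oligoadenylate synthetase that activates the RNA-degrading enzyme RNase L (ENSG00000111335, chromosome 12, 112978395 to 113011723), measured 1.03, 0.585, 1.81, 1.79 and 3.68 CPM in IL-15 tumours, against 0.256, 0.918, 0.410, 0.233 and 0.214 CPM in control tumours. Of the IL-15 tumours 4 lay above every control tumour, and IL-15 tumour 2 lay below control tumour 2. The log2 fold change was 2.11 ± 0.55 (edgeR adjusted p = 0.758, DESeq2 adjusted p = 0.117). On the log2(FPKM + 1) scale, which compresses scarce genes, it was 0.24. Its relatives of the same gene cluster did not show this difference in their means. OAS1 averaged 3.71 ± 1.82 CPM in IL-15 tumours and 4.73 ± 2.99 CPM in control tumours (log2 fold change -0.35 ± 0.51). OAS3 averaged 27.5 ± 2.37 CPM in IL-15 tumours and 28.5 ± 10.6 CPM in control tumours (log2 fold change -0.05 ± 0.21). OASL, a related protein without enzyme activity that lies elsewhere on the chromosome, had a log2 fold change of 0.19 ± 0.36. The differences between these fold changes were not tested.

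**Figure D3:**
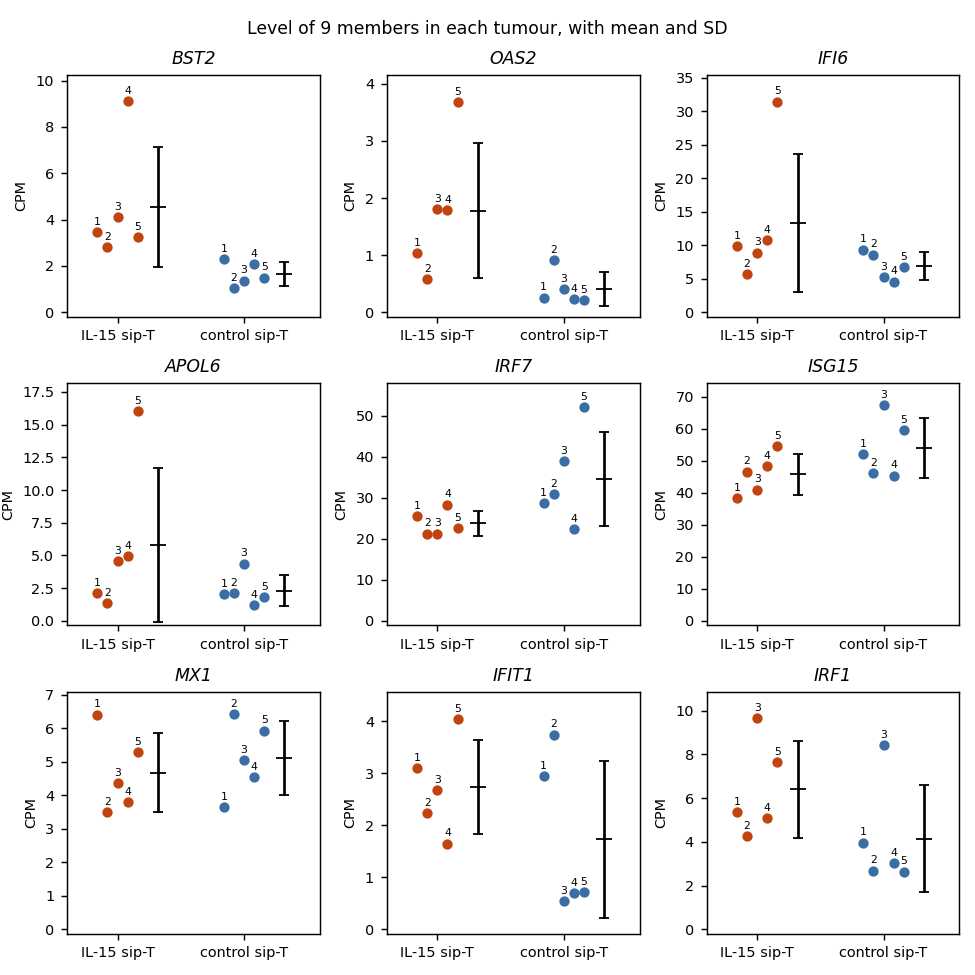
Level in CPM of 9 members in each tumour, numbered as in the labels, IL-15 sip-T in orange at the left and control sip-T in blue at the right, with the mean and SD of 5 libraries beside each group. BST2 alone has groups that do not overlap, and IL-15 tumour 5 carries the highest OAS2, IFI6, APOL6 and IFIT1.

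MX1, a dynamin-like GTPase that traps viral components, measured 6.41, 3.51, 4.37, 3.80 and 5.29 CPM in IL-15 tumours, against 3.65, 6.43, 5.06, 4.54 and 5.93 CPM in control tumours. The groups overlapped throughout, with a log2 fold change of -0.13 ± 0.25 (edgeR adjusted p = 0.936). MX2, its neighbour on chromosome 21, was too scarce for the test, with 60 counts over IL-15 tumours and 44 over control tumours. IFIT1, which binds viral RNA that lacks the host cap mark, measured 3.10, 2.23, 2.68, 1.65 and 4.04 CPM in IL-15 tumours, against 2.95, 3.74, 0.547, 0.698 and 0.715 CPM in control tumours. Control tumours 1 and 2 lay within the IL-15 range and control tumours 3, 4 and 5 below it (log2 fold change 0.66 ± 0.52, edgeR adjusted p = 0.832).

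IFIT2 and IFIT3, partners of IFIT1, had log2 fold changes of 0.48 ± 0.42 and 0.96 ± 0.60, IFIT3 with a value of 6.10 CPM in IL-15 tumour 5 against at most 2.25 CPM in the other IL-15 tumours. Without that tumour the log2 fold change of IFIT3 was 0.25. All 3 IFIT genes lie inside the annotated span of LIPA on the opposite strand, a gene with 8803 counts over all libraries, and no source used here gives the strand setting of the counting. RSAD2, which encodes the antiviral enzyme viperin, and CMPK2, a mitochondrial nucleotide kinase beside it, had log2 fold changes of 0.17 ± 0.60 and 0.20 ± 0.32. SAMD9, an inhibitor of poxvirus growth, averaged 0.849 ± 0.430 CPM in IL-15 tumours and 0.944 ± 0.813 CPM in control tumours.

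Among the other interferon induced proteins, IFI6 (ENSG00000126709, chromosome 1, 27666061 to 27672218) measured 9.93, 5.69, 8.92, 10.8 and 31.5 CPM in IL-15 tumours, against 9.35, 8.62, 5.27, 4.59 and 6.72 CPM in control tumours. IL-15 tumour 5 stood far above the rest, IL-15 tumours 1 and 4 lay slightly above the highest control tumour, and the other 2 lay within the control range. The log2 fold change of 0.95 ± 0.41 (edgeR adjusted p = 0.758) was 0.35 without that tumour. IFI27, a mitochondrial protein, had a log2 fold change of 0.47 ± 0.34 and IFI44, a cytoplasmic protein, one of 0.22 ± 0.37. IFI44L had 69 counts over IL-15 tumours and 43 over control tumours and was not tested. XAF1, which promotes cell death, had 36 counts over IL-15 tumours and 8 over control tumours and was not tested either. PARP9 and DTX3L, which work as a complex in DNA repair and interferon signalling, were among the steadiest members, with ranges over 10 libraries of 1.65-fold and 1.56-fold. PARP9 averaged 49.6 ± 9.09 CPM in IL-15 tumours and 45.6 ± 9.51 CPM in control tumours, and DTX3L 56.7 ± 7.52 and 57.8 ± 9.06 CPM.

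The guanylate binding proteins, GTPases that attack compartments holding microbes, and the chemokines were mostly scarce. GBP1, GBP4 and GBP5 were too scarce for the edgeR test. GBP1 had 19, 5, 51, 15 and 50 counts in IL-15 tumours 1 to 5, against 3, 7, 6, 2 and 4 counts in control tumours. GBP4 had 24, 5, 37, 14 and 10 counts in IL-15 tumours, against 5, 1, 9, 2 and 0 counts in control tumours. GBP5 had 29, 3, 26, 9 and 1 counts in IL-15 tumours, against 1, 0, 16, 1 and 3 counts in control tumours. IL-15 tumour 2 lay within the control range for all 3 genes, and IL-15 tumour 5 was high in GBP1 and low in GBP5. The T cell marker sums of IL-15 tumours 1 to 5 were 47.6, 6.17, 30.5, 27.2 and 8.31 CPM, against 5.89, 6.85, 22.5, 4.54 and 6.72 CPM in control tumours. The highest GBP5 counts thus lay in IL-15 tumours 1 and 3 and in control tumour 3, which are also among the tumours with the most T cell transcripts, and the part of these cells in the counts was not tested. GBP1, with its high count in IL-15 tumour 5, did not follow that order. GBP2, a less scarce relative, averaged 2.94 ± 1.15 CPM in IL-15 tumours and 4.22 ± 3.51 CPM in control tumours (log2 fold change -0.52 ± 0.52). Its highest value, 9.83 CPM, lay in control tumour 4. These genes lie side by side on chromosome 1 and are similar in sequence, and whether reads were shared between them was not tested.

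**Figure D4:**
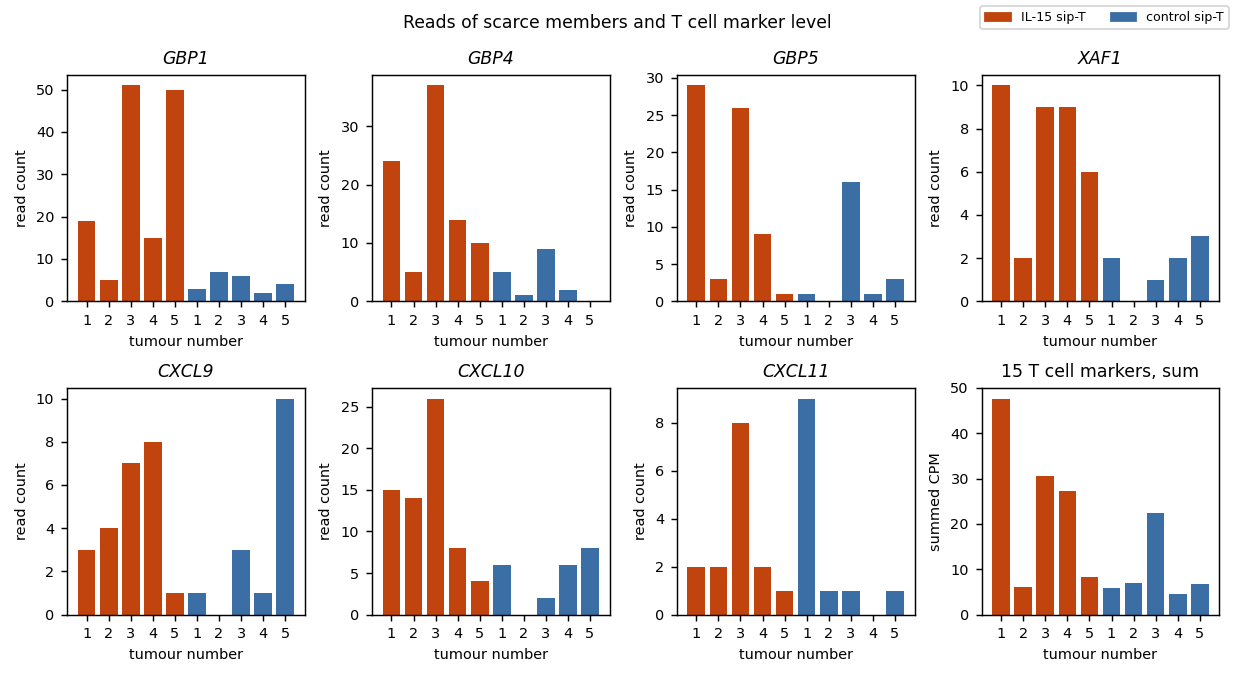
Bars give the read count of 7 scarce members in each tumour and, in the last panel, the summed CPM of 15 T cell markers, IL-15 sip-T in orange at the left and control sip-T in blue at the right. GBP1 has 50 and 51 counts in IL-15 tumours 5 and 3 and at most 7 in control tumours, while T cell markers are highest in IL-15 tumours 1, 3 and 4 and control tumour 3.

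APOL6, an intracellular apolipoprotein L that interferon gamma induces (ENSG00000221963, chromosome 22, 35648395 to 35668409), measured 2.14, 1.38, 4.55, 4.95 and 16.03 CPM in IL-15 tumours, against 2.05, 2.12, 4.38, 1.22 and 1.79 CPM in control tumours. IL-15 tumour 5 again stood far above the rest, IL-15 tumours 3 and 4 lay slightly above the highest control tumour, and the other 2 lay within the control range. The log2 fold change of 1.32 ± 0.60 (edgeR adjusted p = 0.767) was 0.49 without that tumour.

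WARS and IDO1 both use tryptophan, IDO1 by breaking it down. WARS (ENSG00000140105, chromosome 14, 100333788 to 100376805) measured 70.2, 67.6, 99.3, 99.1 and 89.5 CPM in IL-15 tumours, against 83.3, 74.5, 70.7, 69.3 and 70.8 CPM in control tumours. Of the IL-15 tumours 3 lay above every control tumour, 1 lay within the control range and 1 below it (log2 fold change 0.21 ± 0.14, edgeR adjusted p = 0.802). IDO1 had 8 counts over IL-15 tumours and 10 over control tumours.

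CXCL9, CXCL10 and CXCL11, chemokines that attract T cells through the receptor CXCR3, were near the limit of detection. CXCL10 had 15, 14, 26, 8 and 4 counts in IL-15 tumours, against 6, 0, 2, 6 and 8 counts in control tumours. Scaled to library size these were 1.03, 0.744, 1.62, 0.573 and 0.294 CPM in IL-15 tumours, against 0.384, 0, 0.137, 0.349 and 0.572 CPM in control tumours. IL-15 tumours 1 and 3 lay highest, IL-15 tumour 2 lay above the highest control tumour by about the floor, IL-15 tumour 4 matched it and IL-15 tumour 5 lay among the control tumours. CXCL9 had 3, 4, 7, 8 and 1 counts in IL-15 tumours, against 1, 0, 3, 1 and 10 counts in control tumours. CXCL11 had 2, 2, 8, 2 and 1 counts in IL-15 tumours, against 9, 1, 1, 0 and 1 counts in control tumours. For CXCL9 and CXCL11 the groups overlapped, and no difference was detectable at this depth.

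The highest levels of the members were spread over tumours of both groups. Among the 29 tested members, 7 had their highest level in IL-15 tumour 3, 6 in IL-15 tumour 5, 6 in control tumour 3 and 5 in control tumour 4. These are 24.1%, 20.7%, 20.7% and 17.2% of the tested members, where the same tumours held the highest level of 14.97%, 8.89%, 9.63% and 8.87% of all tested genes. IL-15 tumours 1 and 2 held the highest level of 0 members, where they held that of 9.25% and 10.6% of all tested genes. The members highest in IL-15 tumour 5 were USP18, IFIT1, IFIT3, OAS2, IFI6 and APOL6, and those highest in control tumour 3 were IFIH1, SOCS1, ISG15, OAS3, RSAD2 and CMPK2. IL-15 tumour 5 held 8.31 CPM of T cell markers and IL-15 tumour 3 held 30.5 CPM.

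Members that lie within 100 kb of each other were compared over the 10 libraries on log2(CPM + 0.1), which gave 8 pairs of tested genes. IFIT2 and IFIT3 varied together (Pearson r = 0.83, permutation p = 0.00346, adjusted over 8 pairs 0.0277). Their Spearman rho was 0.95 (permutation p = 0.00017, adjusted 0.00136). Without the 2 libraries farthest from the median of IFIT2, r was 0.85. PARP9 and DTX3L, whose annotated spans overlap head to head by 340 bases, had r = 0.77 (permutation p = 0.00978, adjusted 0.0391). Their rho was 0.72 (permutation p = 0.0235, adjusted 0.0939). Without the 2 libraries farthest from the median of PARP9, r was only 0.52. Leaving out the extremes of a single gene also narrows its range, so whether the relation rests on these libraries stays undecided. OAS1 and OAS2 had r = -0.39 (permutation p = 0.266, adjusted 0.304) and rho = -0.53 (permutation p = 0.121, adjusted 0.162). The remaining 5 pairs had adjusted permutation p-values for r from 0.0571 to 0.588.

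Upstream of the members, transcripts of interferons were nearly absent. The 21 interferon genes had 41 counts in all over IL-15 tumours and 24 over control tumours, and 9 of them had none. IFNG, which encodes interferon gamma, had 24 counts over IL-15 tumours and 5 over control tumours. It measured 0.551, 0, 0.562, 0.502 and 0 CPM in IL-15 tumours 1 to 5, against 0.0640, 0, 0.137, 0 and 0.143 CPM in control tumours, and only IL-15 tumours 1, 3 and 4 exceeded the floor. These are the IL-15 tumours with the most T cell markers, and IL-15 tumour 5, with the highest OAS2, IFI6 and APOL6, had 0. The counts are few, and no relation of IFNG to T cells or to the members was tested.

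Of the 11 tested receptor and signal transducer genes, 9 had fold changes above 0, against 49% of all tested genes, and 0 were called by edgeR, against 0% of all tested genes, which holds for the lists that follow too. JAK1 transcripts were present in every library, at 15.9 ± 3.20 CPM in IL-15 tumours and 13.6 ± 2.50 CPM in control tumours (log2 fold change 0.23 ± 0.19). Which cells they came from was not tested. STAT2 averaged 81.3 ± 29.5 CPM in IL-15 tumours and 65.5 ± 9.16 CPM in control tumours, and IRF9 2.72 ± 0.663 and 2.42 ± 0.846 CPM. Of 10 tested sensing genes 4 were above 0, with TRIM25, the ligase that activates RIG-I, at a log2 fold change of -0.38 ± 0.15 (edgeR adjusted p = 0.758). Of 8 tested negative regulators 4 were above 0.

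Among 45 further interferon stimulated genes 38 were tested, of which 19 had fold changes on either side of 0 and 0 were called by edgeR, and their median was -0.04 on the log2 scale. IFITM1, a membrane protein that hinders virus entry, averaged 3.60 ± 1.96 CPM in IL-15 tumours and 1.25 ± 0.438 CPM in control tumours (log2 fold change 1.52 ± 0.39, edgeR adjusted p = 0.758). APOL3, a relative of APOL6, averaged 5.34 ± 2.49 CPM in IL-15 tumours and 2.13 ± 0.548 CPM in control tumours (log2 fold change 1.31 ± 0.38, edgeR adjusted p = 0.758). For both, 4 of 5 IL-15 tumours lay above every control tumour, and IL-15 tumour 5 was the highest. C19orf66, an antiviral RNA-binding protein also called shiftless, averaged 2.08 ± 0.828 CPM in IL-15 tumours and 3.60 ± 1.24 CPM in control tumours (log2 fold change -0.79 ± 0.34, edgeR adjusted p = 0.758).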

How the data were processed

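TRIzol-extracted tumour RNA was sequenced by Illumina, per the labels' protocols. Without roles, the submitters' processing notes list hg38 with HISAT2 2.0.5, GATK 4.1.1.0, featureCounts 1.5.0-p3, fastp and DESeq2 1.20.0. No source used here states the strand setting or the annotation release. The deposited table gives whole read counts per gene, per the file headers. The deposited FPKM values are relative to gene length and to a library total 1.01 to 1.24 times the summed counts, and served for levels between genes. The deposited group means of FPKM were not used. The organism label is mouse, but the genes are human.

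After edgeR's filterByExpr (minimum count 10), 16913 genes were scaled by TMM and entered the quasi-likelihood test of edgeR 4.0.16 in R 4.3.3, and p-values were adjusted over all of them by Benjamini and Hochberg. The script was tested on simulated data. Chi-square per degree of freedom over the 45 library pairs was 17.9 to 78.5, so none were duplicates. No label says that libraries come from separate cell donors, and the p-values cover only the spread between libraries. Members and lists were chosen with earlier results of these data known. By rule, values per library are given for members with an unadjusted p under 0.05, without overlap between groups or among the 3 highest in FPKM, and for ISG15, MX1, IFIT1, IRF1 and the chemokines. Those of the GBP genes were added after their values were seen. Non-members named are at most 2 per direction and list with the smallest p, and JAK1, STAT2, IRF9 and IFNG. Alternatives were DESeq2 1.42.0, limma 3.58.1, other scalings and filters, FPKM with pseudocounts of 0.1 and 1, a block on the replicate number, and leaving out each library. Correlations used 100000 permutations.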

Additional observations from a re-analysis of the deposited data

Results flagged for a closer look

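A library far from the other 4 of its group was found in 8 of 58 groups of member values (Dixon's criterion, gap over range above 0.71). In IL-15 tumours these were BST2 in tumour 4 (9.10 CPM, nearest 4.12), IFI44 in tumour 3 (6.05 CPM, nearest 2.69), and IFI6 (31.5 CPM, nearest 10.8) and APOL6 (16.03 CPM, nearest 4.95), both in tumour 5. In control tumours they were IRF1 (8.42 CPM, nearest 3.97) and APOL6 (4.38 CPM, nearest 2.12), both in tumour 3, OAS2 in tumour 2 (0.918 CPM, nearest 0.410) and SAMD9 in tumour 4 (2.38 CPM, nearest 0.777). All 8 were the highest value of their group. Chance gives about 1 in 20 for normally distributed values, but these CPM values were not log transformed. No share over all tested genes is given, so the count is not read as an excess among the members.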

How the results depend on the processing

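No member was called under any of 20 alternatives, and the replicate block changed no call. The median log2 fold change of the members ran from 0.05 to 0.21 over the 10 alternatives that kept all libraries and from -0.01 to 0.22 with each library left out. Members at an unadjusted p under 0.05 numbered 7 higher and 3 lower with no low-count filter and 8 and 2 with DESeq2, each of 39 tested. They numbered 2 and 2 with limma voom and with FPKM at either pseudocount, and 3 and 2 with the replicate block, each of 29 tested. With each library left out they ran from 2 to 7 higher and from 0 to 2 lower, and the number tested varied. At that level DESeq2 took 4.12% and limma voom 6.47% of all their genes, both directions together. The genes of DESeq2 were not filtered for low counts, so its share covers many genes scarcer than the members. Shares for the other alternatives are not given, so these counts are not read as a result about the members. The block was not used in the main test, because same-numbered libraries did not deviate together (correlations -0.22 to 0.26). Members with at least 3 or 10 counts in every library numbered 31 and 24, and with each library left out those seen in all the rest ran from 32 to 36. Of the 29 tested members 21 kept their sign under every alternative that tested them. SOCS1 turned to 0.024 with library size alone, 0.056 with limma voom, 0.034 with FPKM (pseudocount 0.1) and 0.049 with the block, OAS3 to 0.041, 0.022 and 0.012 with library size alone, limma voom and the block, and DTX3L to 0.017 and 0.055 with upper quartile scaling and library size alone. With each library left out, SOCS1 ran from -0.19 to 0.29, OAS3 from -0.18 to 0.18, DTX3L from -0.10 to 0.049, SAMD9 from -0.51 to 0.52, GBP2 from -0.78 to 0.067, HERC5 from -0.11 to 0.21, IFI44 from -0.15 to 0.43 and RSAD2 from -0.11 to 0.72, and the cause was not tested. Depth limits the 10 untested members, and the unadjusted p of IFI6 and APOL6 stayed under 0.05 in 11 and 8 of 20 alternatives.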
